A study of Rattus norvegicus with 12 samples.

Results

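Class 3 semaphorins, their neuropilin co-receptors and plexin A2 were examined in the rat urinary bladder after its nerves had been injured. The 10 genes, Sema3a, Sema3b, Sema3c, Sema3d, Sema3e, Sema3f, Sema3g, Nrp1, Nrp2 and Plxna2, were taken by symbol, each through the single probe set that carried no other gene, and all 10 were found among the 18166 genes of the table. The 6 denervated samples were urinary bladders of female Sprague Dawley rats, about 3 months old, taken 10 days after surgery with freezing of the ganglia on both sides (called pelvicus freezing in the labels). The 6 sham samples came from rats of the same strain, sex and age that had surgery without freezing, with no interval stated. Each sample was read on 1 array, giving RMA values on the log2 scale. The freezing acts on the nerve supply and not on a single gene. The tissue was bladder of mixed cell types, with bright urothelial markers, although the labels describe almost pure smooth muscle. Nothing in the labels states that every array was a separate animal, so p-values measure the spread between these samples.

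Class 3 semaphorins are secreted guidance proteins. They bind a neuropilin, which holds the ligand, and an A-type plexin, which carries the signal into the cell and causes growth cones and cell edges to withdraw. The same proteins steer blood vessels, since neuropilins also bind vascular endothelial growth factors and plexin D1 on endothelial cells receives Sema3e without a neuropilin. In peripheral organs they are known for setting where sensory and sympathetic axons may grow.

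One array, denervated replicate 2, did not group with the rest of its kind. Its score on principal component 1 over all genes (58% of variance) was -5.84, where the remaining 5 denervated arrays scored 25.94 to 42.52 and sham arrays -30.24 to -22.45. Markers of smooth muscle were bright, with list means of 11.02 to 11.64 in denervated arrays and 11.67 to 11.85 in sham arrays, and all 12 measured markers lay above the median gene. Urothelial markers were bright too (9.88 to 10.33 in denervated and 10.70 to 10.93 in sham arrays, 15 of 15 measured markers above the median gene), although the labels describe almost pure smooth muscle. Fewer cells of a type and less RNA per cell cannot be told apart in such samples.

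Of the 10 genes, Sema3d and Nrp1 were higher and Sema3a and Sema3e lower in denervated bladders, while Sema3b, Sema3c, Sema3f, Sema3g, Nrp2 and Plxna2 did not pass the test (limma, adjusted p under 0.05, adjusted over all genes). The 4 calls, 2 in each direction, make 40.0% of the members, against 28.7% of all 18166 genes called, 11.9% higher and 16.9% lower. With 10 members that count does not set them apart from the table as a whole. Their median change was 0.02 on the log2 scale, against -0.04 over all genes. Without denervated replicate 2, 7 of the 10 were called, against 34.5% of all genes in that fit. That array was set apart by its own values. The members were chosen with earlier results of these data known, and 9 of the 10 lay above the median gene. Both shares of the members are therefore only a description.

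**Figure D1:**
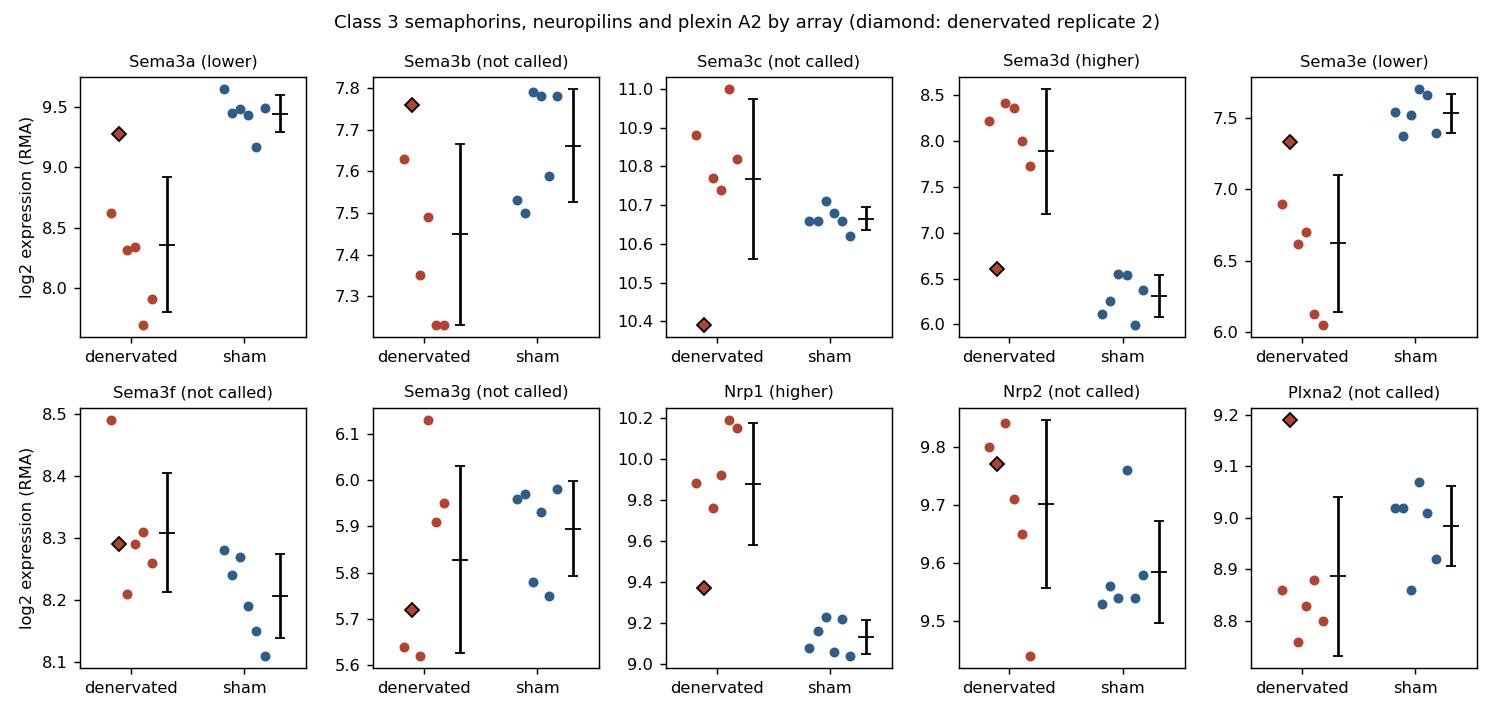
Log2 expression (RMA) of the 10 genes on each array, denervated on the left and sham on the right of each panel, with mean ± SD bars (n = 6 per group) and a diamond for denervated replicate 2. Sema3d and Nrp1 lie higher and Sema3a and Sema3e lower in denervated arrays, with denervated replicate 2 nearest to the sham arrays in all 4 panels.

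Among the 7 ligands, Sema3d moved most. It encodes a secreted semaphorin that guides endothelial and neural crest cells. Its log2 expression had a lowest value of 6.60, a median of 8.11 and a highest of 8.42 in denervated bladders, against 5.99, 6.32 and 6.55 in sham bladders. Every denervated array was above every sham array, but denervated replicate 2 (6.60) was above the highest sham array by little, while the other 5 lay between 7.73 and 8.42. The log2 rise of Sema3d was 1.59 ± 0.26 (SE, n = 6 per group), a 3.00-fold change with an adjusted p of 0.000744. Leaving out denervated replicate 2 gave a rise of 1.84 ± 0.14. The sham mean of 6.30 was below the mean of the median gene (6.84), so its signal over background there is unknown and the size of the rise is uncertain.

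Sema3a fell. It is the founding axon repellent of the family and acts on sensory and sympathetic axons through Nrp1. Its log2 expression had a lowest value of 7.69, a median of 8.32 and a highest of 9.28 in denervated bladders, against 9.17, 9.47 and 9.65 in sham bladders. The groups overlapped only through denervated replicate 2 (9.28), since the other 5 denervated arrays (7.69 to 8.62) were all below the lowest sham array. The difference was -1.09 ± 0.21 (SE, n = 6 per group, adjusted p = 0.00208), so that sham bladders had 2.12 times the denervated level.

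Sema3e fell as well. Its product signals through plexin D1 and restrains vessel growth. Log2 expression ranged from 6.05 to 7.33 with a median of 6.66 in denervated bladders, against 7.37 to 7.70 with a median of 7.53 in sham bladders. The groups did not overlap, and denervated replicate 2 (7.33) again came closest to the sham arrays. The difference was -0.91 ± 0.18 (SE, n = 6 per group, adjusted p = 0.0025), and sham bladders had 1.87 times the denervated level. The denervated mean of 6.62 was below the mean of the median gene (6.84), so the size of the fall is uncertain. Counted over all 10 genes, the groups did not overlap for 3 of 10 (Sema3d, Sema3e and Nrp1), against 13.3% of all genes (5.76% higher and 7.59% lower).

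The remaining ligands did not pass the test. For Sema3c, which is needed for the cardiac outflow tract, the call depended on a single array. Denervated replicate 2 had 10.39 and the remaining denervated arrays 10.74 to 11.00, against 10.62 to 10.71 in sham arrays. The 5 were all above the sham arrays and replicate 2 was below them all. The difference was 0.10 ± 0.08 (95% interval -0.08 to 0.29, adjusted p = 0.411), and without denervated replicate 2 it was 0.18 ± 0.06 and passed the test (adjusted p = 0.029).

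Sema3b, an axon repellent also studied as a tumour suppressor, had 7.23 to 7.76 with a median of 7.42 in denervated bladders, against 7.50 to 7.79 with a median of 7.68 in sham bladders. The groups overlapped, 4 of 6 denervated arrays being below the lowest sham array. The difference was -0.21 ± 0.10 (adjusted p = 0.131), and -0.28 ± 0.09 without denervated replicate 2 (adjusted p = 0.0309). Sema3f, which acts through Nrp2, had 8.21 to 8.49 in denervated and 8.11 to 8.28 in sham bladders, a difference of 0.10 with a 95% interval of -0.03 to 0.23. Sema3g, a ligand of Nrp2 made by arterial endothelium, had 5.62 to 6.13 in denervated and 5.75 to 5.98 in sham bladders, a difference of -0.07 with a 95% interval of -0.26 to 0.13. Sema3g was the only one of the 10 genes whose mean over all arrays (5.86) was below the median gene, and its signal over background is unknown. These intervals leave out differences in array signal of the size seen for Sema3d, Sema3a and Sema3e. For Sema3g, a change in RNA could still be missed at a signal this low.

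In the rat RefSeq annotation (GRCr8), 4 of the ligands lie on chromosome 4 in the order Sema3c, Sema3e, Sema3a and Sema3d. No protein-coding gene is annotated between Sema3a and Sema3d, which moved in opposite directions. Between Sema3c and Sema3e there are 4, among them Hgf, and between Sema3e and Sema3a there are 12. Sema3b and Sema3f are near each other on chromosome 8, with 3 protein-coding genes between them. Of the 10 genes, 7 had an entry in the RefSeq promoter table. The 250 bases before the start that this table uses (GRCr8, written 5′ to 3′ on the gene's strand) are shown for the 3 called genes among those 7, because these are the stretches before the starts of genes whose RNA moved. Capitals mark matches, on either strand, to any of 4 short motifs. The first was TATAAA, the TATA box of many tissue-specific promoters. The second was GGGCGG, the box that Sp1 proteins bind. The third was CACGTG, the box of many basic helix-loop-helix proteins. The fourth was TGANTCA, where N is any base, the site of Fos and Jun proteins.
Sema3d, minus strand, chr4:23460972-23461221: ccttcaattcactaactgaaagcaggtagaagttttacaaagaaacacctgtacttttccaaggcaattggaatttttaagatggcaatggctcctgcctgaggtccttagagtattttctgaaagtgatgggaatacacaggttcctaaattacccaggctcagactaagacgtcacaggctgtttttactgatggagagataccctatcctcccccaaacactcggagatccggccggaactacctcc
Sema3e, minus strand, chr4:21510375-21510624: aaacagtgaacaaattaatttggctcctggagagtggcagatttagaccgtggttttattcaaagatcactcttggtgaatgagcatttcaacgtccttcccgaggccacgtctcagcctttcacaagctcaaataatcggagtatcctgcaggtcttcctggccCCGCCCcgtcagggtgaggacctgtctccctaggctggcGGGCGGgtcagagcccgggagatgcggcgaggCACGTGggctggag
Nrp1, plus strand, chr19:73256307-73256556: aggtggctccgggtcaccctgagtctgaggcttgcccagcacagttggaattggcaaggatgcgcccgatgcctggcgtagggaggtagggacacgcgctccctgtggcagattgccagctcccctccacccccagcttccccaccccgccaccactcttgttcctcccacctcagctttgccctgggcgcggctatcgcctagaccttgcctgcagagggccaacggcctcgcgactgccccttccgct

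The start used for Sema3e lies within the annotated gene, so that the last 75 of its 250 bases are inside the gene as RefSeq draws it, while the Sema3d and Nrp1 stretches lie wholly outside (0 bases inside). The Sema3e stretch held 2 GGGCGG matches, 85 and 46 bases before the start used, and 1 CACGTG match 14 bases before it, the last 2 of these 3 matches being inside the annotated gene. Sema3d and Nrp1 held none of the 4 motifs in this window. Over the same window of all 33469 promoters in the table, 30.5% held GGGCGG, 5.59% CACGTG, 12.9% TATAAA and 6.34% TGANTCA. The stretches differed in base composition, with 44.8% G and C in Sema3d, 55.6% in Sema3e and 66.4% in Nrp1, against a median of 51.2% over all promoters. The arrays measured RNA and not promoter use, so these matches are a description of the sequence.

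Of the receptors, Nrp1 rose. It is the co-receptor that Sema3a needs and also binds vascular endothelial growth factor on endothelial cells. Log2 expression had a lowest value of 9.37, a median of 9.90 and a highest of 10.19 in denervated bladders, against 9.04, 9.12 and 9.23 in sham bladders. All 6 denervated arrays were above all sham arrays, replicate 2 being the lowest. The rise was 0.75 ± 0.12 (SE, n = 6 per group), 1.68-fold with an adjusted p of 0.000628. It had the smallest p of the 10 genes, with 3.66% of all genes at that p or below.

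Nrp2, the co-receptor for Sema3f and for vascular endothelial growth factor C on lymphatic vessels, had 9.44 to 9.84 in denervated and 9.53 to 9.76 in sham bladders. The groups overlapped, with 3 denervated arrays above the highest sham array and 1 below the lowest. The difference was 0.12 ± 0.07 (95% interval -0.04 to 0.28, adjusted p = 0.265). Plxna2, the signalling partner of neuropilins, stood at 9.19 in denervated replicate 2 and at 8.76 to 8.88 on the remaining denervated arrays, against 8.86 to 9.07 in sham bladders. Its difference was -0.10 ± 0.08 (95% interval -0.26 to 0.07, adjusted p = 0.386), and it passed the test at -0.16 ± 0.06 without denervated replicate 2 (adjusted p = 0.0438).

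**Figure D2:**
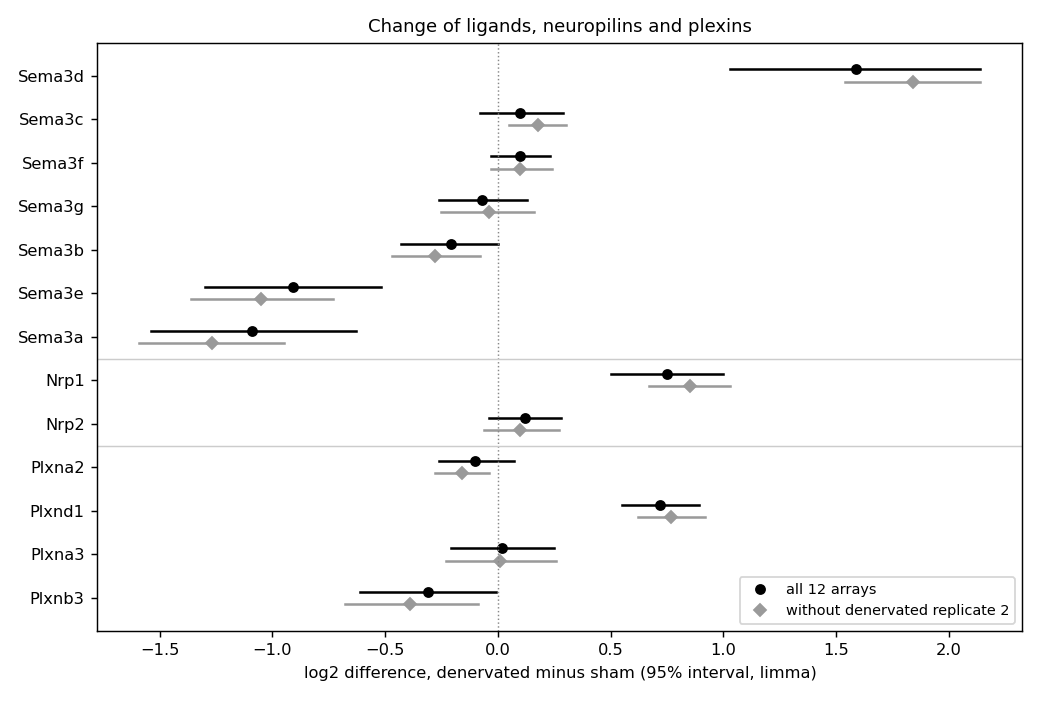
Log2 difference, denervated minus sham, with its 95% interval from limma for the 7 ligands, 2 neuropilins and 4 plexins, from all 12 arrays (black circles) and without denervated replicate 2 (grey diamonds). Sema3d, Nrp1 and Plxnd1 lie above 0 and Sema3a, Sema3e and Plxnb3 below it in both fits, while the intervals of Sema3c, Sema3b and Plxna2 clear 0 only without that array.

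Whether 2 genes changed by unequal amounts was tested within arrays, as the log2 value of one minus that of the other, by a two-sided exact permutation test over the 924 splits of the 12 arrays into 6 and 6, adjusted over the 4 pairs. Nrp2 minus Nrp1 averaged -0.18 ± 0.41 in denervated and 0.45 ± 0.15 in sham bladders (SD, n = 6 each), a difference of -0.63 (exact permutation p = 0.00866, adjusted 0.0115), with 5 of 6 denervated arrays below all sham arrays. Nrp1 minus Plxna2 averaged 0.99 ± 0.43 in denervated and 0.15 ± 0.13 in sham bladders, a difference of 0.84 (exact permutation p = 0.00649, adjusted 0.0115), with 5 of 6 denervated arrays above all sham arrays. The change of Nrp1 was thus above that of Nrp2 and that of Plxna2. For Nrp2 minus Plxna2 the difference was 0.21 (exact permutation p = 0.0346, adjusted 0.0346), with 4 of 6 denervated arrays above all sham arrays. That call was lost without denervated replicate 1, 3 or 4 or sham replicate 1, 2 or 5 (adjusted exact permutation p of 0.0541 to 0.0671).

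Sema3f and Sema3a, the ligands that prefer Nrp2 and Nrp1, changed unequally. Sema3f minus Sema3a averaged -0.05 ± 0.55 in denervated and -1.24 ± 0.13 in sham bladders (SD, n = 6 each), a difference of 1.18. The groups did not overlap, although denervated replicate 2 (-0.99) was close to the highest sham array (-1.01). The exact permutation p of 0.00216 (adjusted 0.00866) is the smallest that 6 against 6 arrays can give. Sema3a itself changed by -1.09 and Sema3f by 0.10, so this pair largely repeats the fall of Sema3a.

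**Figure D3:**
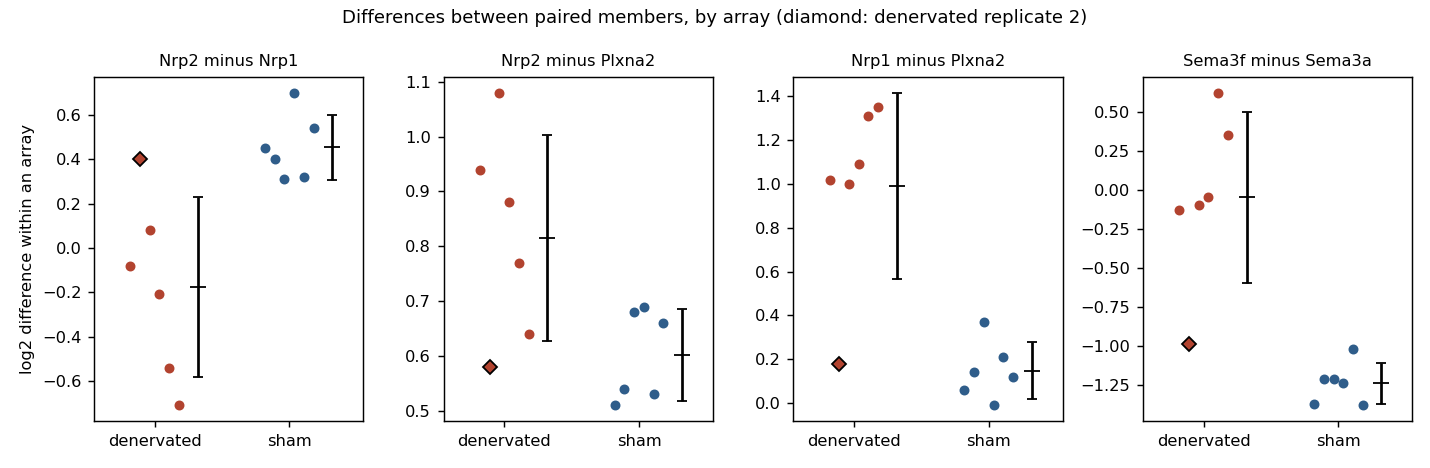
Difference of 2 genes' log2 values within each array for the 4 pairs, denervated on the left and sham on the right, with mean ± SD bars (n = 6 per group) and a diamond for denervated replicate 2. Nrp2 minus Nrp1 is lower and Nrp1 minus Plxna2 and Sema3f minus Sema3a are higher in denervated arrays, and denervated replicate 2 lies beside the sham arrays.

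Among the denervated arrays, several of the 10 genes had their extremes in the same replicates. Denervated replicates 5 and 6 had the lowest Sema3a (7.69 and 7.91), the lowest Sema3e (6.13 and 6.05) and the highest Nrp1 (10.19 and 10.15) of the group. Both also had the lowest Sema3b (7.23 each). Sema3d differed in this: it was highest in replicates 3 and 4 (8.42 and 8.36), and replicates 5 and 6 (8.00 and 7.73) were the lowest after replicate 2. The SD of Sema3a was 0.56 in denervated and 0.16 in sham bladders, and 0.37 in denervated bladders without replicate 2.

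Gene patterns most like these were looked for among all 18166 genes by Pearson correlation over the 12 arrays, which share the group difference, and again after subtracting group means. Sema3a was most like Pcp4, a small calmodulin-binding protein (r = 0.995, and 0.98 after subtracting group means), Myh11, the heavy chain of smooth muscle myosin (0.991 and 0.97), and Coro6, a coronin (0.99 and 0.97). These 3 genes fell by 1.08, 0.51 and 0.89 on the log2 scale. Sema3d was most like Cilp, a cartilage matrix protein (r = 0.99 and 0.96), Uhrf1, which maintains DNA methylation in dividing cells (0.988 and 0.95), and Acta1, skeletal muscle actin (0.987 and 0.96). These rose by 3.52, 1.19 and 1.56. After denervated replicate 2 was left out and group means subtracted, r was 0.93 to 0.96 for the 3 genes like Sema3a and 0.76 to 0.86 for the 3 like Sema3d.

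Marker lists of other cell types were counted in the same samples, where 11.9% of all genes were higher and 16.9% lower. Neuron and axon markers (29.4% called) were near the 28.7% called among all genes, and lymphatic markers (14.3%) were below it. Only 5 of 17 neuron and axon markers, 6 of 12 Schwann cell markers and 1 of 14 lymphocyte markers lay above the median gene. Signal over background of the dimmer markers is unknown, so changes in them could have been missed. Smooth muscle markers had 9 of 12 lower and 1 higher, urothelial markers 14 of 15 lower, Schwann cell markers 5 of 12 lower (list means of 6.68 to 7.33 in denervated and 7.43 to 7.56 in sham arrays), and neuron and axon markers 4 of 17 lower and 1 higher (5.74 to 6.05 in denervated, 6.12 to 6.29 in sham). Their part in the falls of Sema3a and Sema3e was not tested. Endothelial markers had 6 of 12 higher and 0 lower (8.10 to 8.36 in denervated and 7.85 to 7.92 in sham arrays), macrophage markers 15 of 16 higher (9.57 to 10.46 in denervated, 8.61 to 8.84 in sham). Lymphocyte markers had 9 of 14 higher (5.97 to 7.03 in denervated, 5.46 to 5.60 in sham), fibroblast markers 7 of 14 higher and 1 lower (10.46 to 11.18 in denervated, 10.26 to 10.59 in sham), cell division genes 12 of 13 higher (6.56 to 8.12 in denervated, 6.09 to 7.21 in sham) and lymphatic markers 1 of 7 higher (8.14 to 8.89 in denervated, 8.22 to 8.57 in sham). Their part in the rises of Nrp1 and Sema3d was not tested. Relative to the sham mean, the endothelial list stood at 0.21 in denervated replicate 2 and at 0.33 to 0.46 on the remaining denervated arrays, and the smooth muscle list at -0.09 and at -0.72 to -0.29.

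Of the other plexins, 3 of 8 listed were tested. Plxnd1, the endothelial receptor of Sema3e, stood at 8.73 in denervated replicate 2 and at 8.86 to 9.13 on the remaining denervated arrays, against 8.07 to 8.35 in sham bladders. The groups did not overlap, and it rose by 0.72 ± 0.08 (SE, n = 6 per group, 1.65-fold, adjusted p = 8.57e-05), while its ligand Sema3e fell. Plxna3, a partner of neuropilins, differed by 0.02 (95% interval -0.21 to 0.25) and Plxnb3, a receptor of Sema5a, by -0.31 (-0.61 to -0.01, adjusted p = 0.113), and Plxnb3 passed the test without denervated replicate 2 (adjusted p = 0.0411) or sham replicate 5 (0.0369). Plxna1, Plxna4, Plxnb1, Plxnb2 and Plxnc1 were not tested here under a gene name of their own.

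Semaphorins of the other classes are bound to the membrane. Of 12 tested, 2 were higher, 2 lower and 8 not called (33.3% called, against 28.7% of all genes, with a median change of -0.03). Sema5a, which carries thrombospondin repeats, fell most: it stood at 8.57 in denervated replicate 2 and at 7.06 to 8.16 on the remaining denervated arrays, against 8.82 to 9.27 in sham bladders. The groups did not overlap, and the fall was -1.26 ± 0.20 (SE, n = 6 per group, adjusted p = 0.000712). Sema4g fell by 0.43, Sema6b, a ligand of A-type plexins, rose by 0.39 and Sema7a, a lipid-anchored ligand of plexin C1 and integrins, rose by 0.40. The call of Sema7a (adjusted p = 0.0277) was lost without denervated replicate 3, 4 or 5 or sham replicate 4 or 6 (0.0541 to 0.0645).

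Proteins that relay the signal inside the cell include small GTPases, kinases and collapsin response mediators. Of 34 tested, 12 were higher, 3 lower and 19 not called (44.1% called, against 28.7% of all genes, with a median change of 0.08). The list was chosen with earlier results of these data known, and 29 of 34 lay above the median gene. That share is therefore only a description. Rac2, a Rac GTPase of blood cells, rose by 1.44 ± 0.16 (adjusted p = 9.23e-05), Fyn, a Src family kinase, by 0.99 ± 0.16 and Pak1, a kinase downstream of Rac, by 0.71 ± 0.11. Dpysl3, a collapsin response mediator protein, rose by 0.69, as did Fes, a tyrosine kinase of plexin A complexes that is abundant in myeloid cells. In denervated replicate 2 both stood near the sham mean (Dpysl3 at 9.62 against 9.62, Fes at 6.60 against 6.58). Dpysl2, the collapsin response mediator best known for relaying Sema3a, rose by 0.46 ± 0.08 (adjusted p = 0.00104) and was chosen after its values were seen. Of the same family, Crmp1, Dpysl4 and Dpysl5 were not called. The 3 lower relay genes were Micall1 (-0.62), Rap1a (-0.44) and Tiam1 (-0.26). The call of Tiam1 (adjusted p = 0.046) was lost without denervated replicate 2 (0.0543), and its adjusted p reached 0.0984 when 1 array was left out. The macrophage markers that rose are given above, and their part in the rises of Rac2 and Fes was not tested.

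Among 25 tested partners of neuropilins and plexins, 8 were higher, 5 lower and 12 not called (52.0% called, against 28.7% of all genes, with a median change of 0.07). Here too the list was chosen with earlier results known, and 19 of 25 lay above the median gene, so the share is only a description. Vegfd, a growth factor of lymphatic vessels, stood at 7.64 in denervated replicate 2 and at 9.26 to 9.90 on the remaining denervated arrays, against 6.67 to 7.09 in sham bladders. It rose by 2.40 ± 0.30 (SE, n = 6 per group, adjusted p = 0.000186), and its receptor Flt4 rose by 0.65 ± 0.14 (adjusted p = 0.00365). Flt4 was itself the 1 called gene among the 7 lymphatic markers above, whose median change was 0.10. Versican (Vcan), a matrix proteoglycan, rose by 2.17 ± 0.32, and Pcsk6, a protease of the family that trims class 3 semaphorins, by 0.61 ± 0.18. Pcsk6 stood at 7.26 in denervated replicate 2, below the sham mean of 7.37. L1cam, an axonal adhesion protein that joins Nrp1 in the Sema3a receptor, fell by 0.91 ± 0.12 (adjusted p = 0.000196), with 6.54 to 7.19 in denervated and 7.46 to 7.87 in sham bladders, so that Nrp1 and L1cam moved in opposite directions.

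The other guidance families steer axons and vessels through receptors of their own. Of 42 tested netrin, slit, repulsive guidance molecule and ephrin genes, 5 were higher, 8 lower and 29 not called (31.0% called, against 28.7% of all genes, with a median change of -0.01). Ntng1, a membrane-anchored netrin, differed by -1.37 ± 0.33 (adjusted p = 0.00733) and Epha7, an ephrin receptor, by -0.61 ± 0.17 (adjusted p = 0.0146). Slit3, a secreted ligand of Robo receptors, rose by 1.05 ± 0.16 (adjusted p = 0.000579), Ntng2 by 0.56 ± 0.10 and Slit2 by 0.53 ± 0.17. In denervated replicate 2, Ntng1 (7.54), Epha7 (8.73) and Slit2 (6.75) lay within their sham ranges. The call of Slit2 (adjusted p = 0.0355) was lost without denervated replicate 1, 3, 4 or 5 or sham replicate 1, 4, 5 or 6 (0.0585 to 0.0768).

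**Figure D4:**
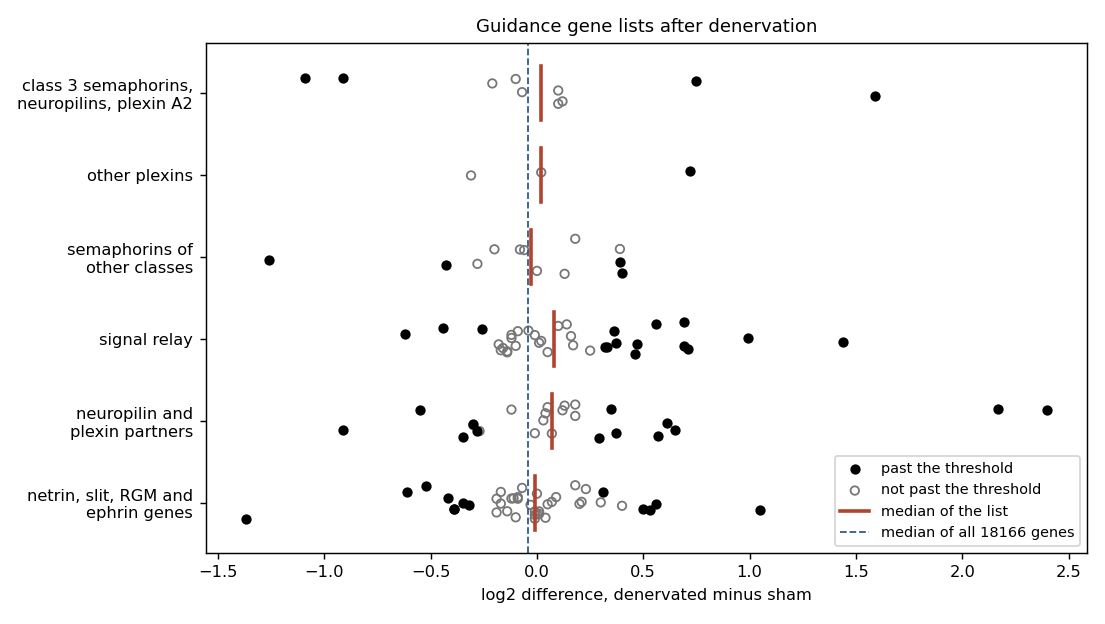
Log2 difference, denervated minus sham, of every tested gene in 6 lists (1 point a gene, spread vertically at random), filled where the adjusted p was under 0.05, with each list's median as a red bar and the median of all 18166 genes as a dashed line. The 10 class 3 semaphorin, neuropilin and plexin A2 genes spread from -1.09 to 1.59 around a median of 0.02.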

How the data were processed

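Total RNA of 12 bladder samples was read on 1 array each. The log2 expression values were deposited by the authors and, per the submitters' processing notes, were made by RMA (background correction, quantile normalization, probe set summary) in Affymetrix Expression Console 1.4.1.46. The table gives no detection calls, and its genome build was not given in the sources used here, nor were scan batches.

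Of 36685 probe sets, 18511 carried 1 gene in the platform's table, and 18394 of these matched a RefSeq gene (GRCr8). The brightest probe set stood for each of 18166 genes. Each of the 10 members had 1 probe set.

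Denervated and sham arrays were compared with limma 3.58.1 in R 4.3.3 (lmFit, eBayes, two-sided), with Benjamini-Hochberg adjustment over all 18166 genes, after the fit was tested on simulated data. All adjusted p of single genes come from the limma fit. The simulation gave both groups the same spread and held no outlying array, so it cannot speak for those features of these data. The 4 pair differences were tested by exact permutation. Members and lists were chosen with earlier results of these data known. All members were named, as were the called genes among the 5 largest changes of each list, the other plexins, and the 3 genes most like the members with the largest rise and fall. Outside that rule, the relay genes Dpysl2, Crmp1, Dpysl4, Dpysl5, Micall1, Rap1a and Tiam1 were also named. Same-numbered arrays were not paired (correlations of their deviations from the group means of -0.112 to 0.101), so no block entered the fit. Alternatives were other normalization, filters, tests, weights and probe set rules, the block, and leaving out each array.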

Additional observations from a re-analysis of the deposited data

Results flagged for a closer look

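In 3 of the 20 groups of 6 values examined (10 genes, 2 groups each), 1 array lay far from the others by Dixon's test. Chance flags about 1 in 20 such groups. The value of Plxna2 was 9.19 in denervated replicate 2 and 8.76 to 8.88 on the remaining denervated arrays. Sema3f stood at 8.49 in denervated replicate 1 and at 8.21 to 8.31 on the remaining ones. Nrp2 stood at 9.76 in sham replicate 4, against 9.53 to 9.58.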

How the results depend on the processing

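The calls of Sema3d, Sema3a, Sema3e and Nrp1 kept their direction and stayed past the threshold in 11 alternatives (adjusted p of at most 0.0301) and in the 12 fits that left out 1 array (at most 0.00701). Calls of members numbered 2 to 3 higher and 2 to 4 lower when 1 array was left out, the highest without denervated replicate 2, where Sema3b (-0.28), Sema3c (0.18) and Plxna2 (-0.16) passed. Over the same fits, calls of other plexins numbered 0 to 1 lower, and of semaphorins of other classes 1 to 2 higher. Those semaphorins had 1 call higher with the exact rank-sum test or all probe sets, and 4 lower with median centring or with genes above the median gene only. The test against a 1.2-fold change left 0 higher and 1 lower there, 3 and 0 in the signal relay, 2 and 1 among partners, and 1 and 2 among the other guidance families. The rank-sum test gave 5 partners higher and 5 other guidance genes lower, and array weights gave 8 other guidance genes higher. Sema3g had no value among genes above the median gene. The causes were not tested. With the replicate number as a block, no call of a member changed. The pair differences were then tested by exact sign-flip permutation over the 6 pairs of equal number, where 0 of 4 passed after adjustment and 2 of 4 had an unadjusted p of 0.0312, the smallest possible (-0.63 for Nrp2 minus Nrp1, 0.21 for Nrp2 minus Plxna2, 0.84 for Nrp1 minus Plxna2 and 1.18 for Sema3f minus Sema3a, each with an adjusted p of 0.0625). Nrp2 minus Plxna2 ranged from 0.16 to 0.26 when 1 array was left out. No quantile or median rescaling moved the median of all genes by more than 0.02. The number of arrays and unknown signal over background limit what small changes could be seen.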
